A study of Homo sapiens with 6 samples.

Results

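The BCL2 family sets whether a cell under stress opens the outer membrane of its mitochondria and enters apoptosis, and 10 of its genes were followed here in SUM159 cells given decitabine. They were chosen as members of the family, with no measured value in the rule: the pro-apoptotic genes BCL2L11, BBC3, PMAIP1, BMF, BID, BAX and BAK1 and the anti-apoptotic genes BCL2L1, MCL1 and BCL2. Earlier results of these data were, however, known when the choice was made. All 10 had an array feature that the platform annotation named with that symbol alone, out of 14884 genes with such a feature. BMF had 2 features, of which the brighter was used, and each of the other members had 1.

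SUM159 cells are an established line from a human breast carcinoma without hormone receptors or HER2 amplification. Decitabine, an analogue of deoxycytidine, enters DNA in S phase, where DNA methyltransferases become bound to it and are lost, so that methylation falls as cells divide. Total RNA was measured on 6 single-colour arrays, 3 from cells that had 72 h of 1 µM decitabine, renewed each day with the medium, and 3 from untreated cells of the same line kept for 72 h in medium labelled NT. The labels do not say whether the NT medium held the drug's solvent, or whether samples of a group came from separate cultures. The p-values therefore reflect the spread among these samples alone, and that spread may be technical. Titles of the untreated samples carry the dose of 1 µM as well, while NT in the same titles and in the treatment label puts them in the untreated group. Titles give the samples replicate numbers 1 to 3 in each group, and a pair below is the decitabine and the untreated array of the same number. Values are read as log2 expression, and a change is decitabine minus untreated on that scale.

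The family works by protein contacts. The BH3-only proteins sense stress: BIM (from BCL2L11) and PUMA (from BBC3) bind all the anti-apoptotic members, NOXA (from PMAIP1) binds mainly MCL1, BMF responds to loss of cell attachment, and BID links death receptors to mitochondria once a caspase has cut it. BCL-XL (from BCL2L1), MCL1 and BCL2 hold these proteins and the effectors BAX and BAK (from BAK1) in check, and free BAX and BAK form the pores that release cytochrome c. Much of this control lies in protein binding, cleavage and turnover, which RNA does not show.

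Of 13 marker genes listed for the line, 10 had a named feature, and they gave a mixed profile. Vimentin (VIM), a mesenchymal filament protein, had values of 8.66, 8.79 and 8.97 in decitabine and 9.68, 9.13 and 9.27 in untreated arrays. AXL, a receptor tyrosine kinase of mesenchymal-like cells, was at 5.80 to 6.09 in decitabine and 7.72 to 7.84 in untreated arrays, and fell by 1.79 on the log2 scale (limma adjusted p = 0.00361, and 0.00138 with the block). The other 9 passed in neither fit. The surface receptor CD44 and the membrane-binding protein ANXA1 were at 6.47 to 7.27 and 9.39 to 9.87 in decitabine arrays and at 6.14 to 7.00 and 8.94 to 9.73 in untreated arrays. The epithelial keratin KRT18 and the luminal factor GATA3 were also well above the array medians given next, at 7.82 to 7.97 and 5.32 to 5.79 in decitabine arrays and at 7.57 to 7.96 and 5.49 to 5.74 in untreated arrays. KRT8 and FOXA1 were at 3.41 to 3.83 and 1.96 to 3.51 in decitabine arrays and at 3.68 to 4.45 and 2.30 to 3.11 in untreated arrays. The hormone receptors ESR1 and PGR were at 1.50 to 2.34 and 1.71 to 2.95 in decitabine arrays and at 1.78 to 2.43 and 1.54 to 2.28 in untreated arrays, near or below the array medians over all features of 2.37 to 2.98 in decitabine and 2.29 to 3.03 in untreated arrays. Of 15 markers of leukocytes, endothelium, fibroblasts and other cells 6 had a named feature, with values of 1.04 to 3.69 in decitabine and 1.04 to 3.74 in untreated arrays and sums of 14.36 to 16.62 and 12.39 to 17.13. None of the 6 passed the test without a block, and the monocyte marker CD14 passed it with the block (change 0.72, adjusted p = 0.0247). The part of these markers in the results below was not tested. Both arrays of replicate 1 stood apart by their higher medians, 2.98 in decitabine and 3.03 in untreated cells, so results without them are given where they change a call.

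Decitabine-treated cells had more BCL2L11 RNA than untreated cells, and less RNA of MCL1, BCL2, BCL2L1 and PMAIP1, while BAX, BAK1, BMF, BID and BBC3 did not pass the test in either fit. BCL2L11 rose by 1.45 on the log2 scale, or 2.73-fold. All 3 anti-apoptotic members and PMAIP1 were lower in all 3 pairs, by means of 0.73 to 1.51 on the log2 scale, and these passed the test with the replicate number as a block but not without it. In limma's test over all genes without a block, 1 of the 10 members rose and none fell, where 3.03% of all genes passed, 2.01% upward and 1.02% downward. With the block 1 rose and 4 fell, where 13.2% of all genes passed, 7.79% upward and 5.37% downward. The 3 decitabine values lay wholly above the untreated values for 1 member and wholly below them for 3, where the groups did not overlap for 20.1% of all genes, 11.3% higher and 8.74% lower in decitabine. Total RNA of the whole culture was measured, so fewer cells expressing a gene and less RNA per cell cannot be told apart.

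**Figure D1:**
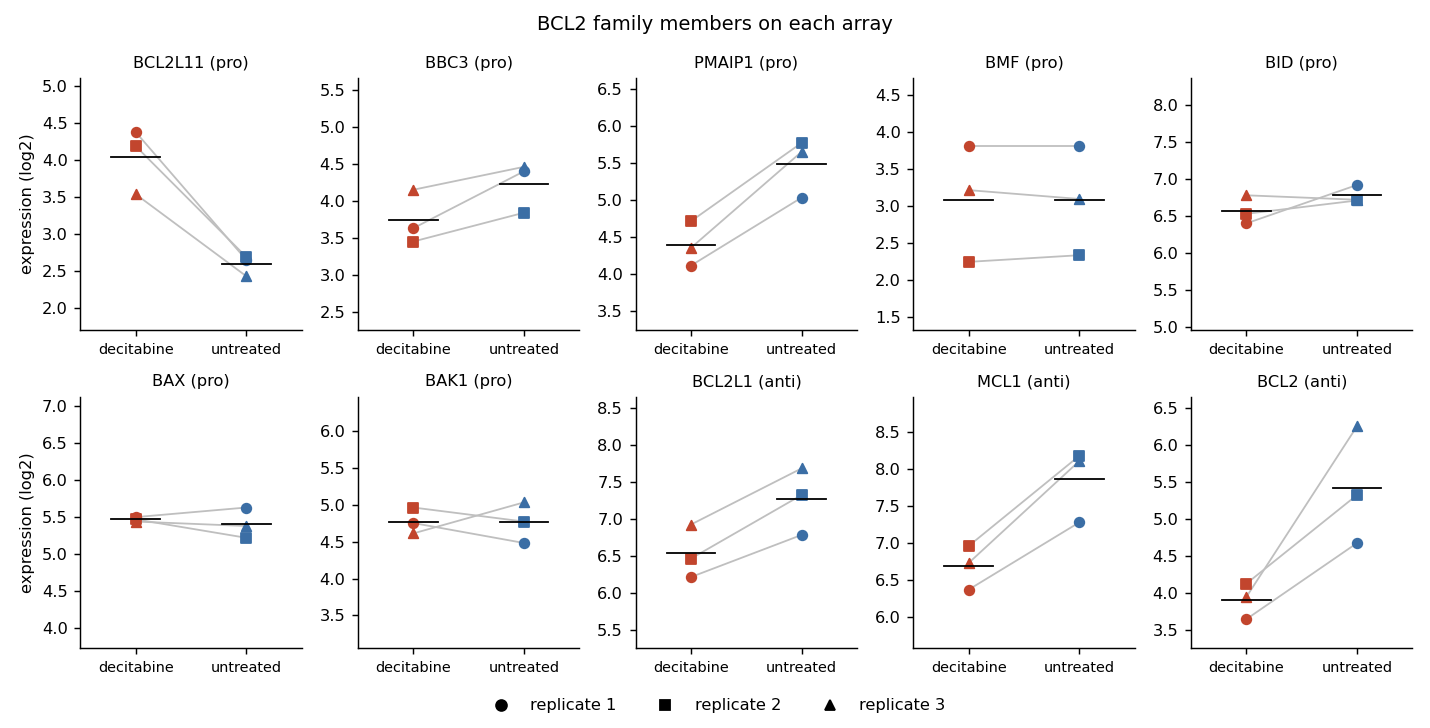
Expression of the 10 members on the log2 scale, with a symbol for each array, decitabine in red and untreated in blue; black bars are group means, grey lines join arrays of the same replicate number, and every panel spans the same number of log2 units. BCL2L11 lies higher in all 3 decitabine arrays than in any untreated array, and PMAIP1, MCL1 and BCL2 lie lower in all 3.

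Among the BH3-only genes, BCL2L11, which encodes BIM, had values of 4.38, 4.19 and 3.54 in decitabine replicates 1 to 3 and 2.65, 2.69 and 2.43 in the untreated ones. The lowest decitabine value was thus above the highest untreated value. The means were 4.04 ± 0.44 in decitabine and 2.59 ± 0.14 in untreated cells (SD, n = 3 per group). The change of 1.45 (SE 0.26, 95% interval 0.84 to 2.05) had a limma adjusted p of 0.0270, and of 0.00504 with the block. The pairs gave 1.73, 1.50 and 1.11, and 1.46% of all genes had a higher change. The untreated values were near the array medians, and the table holds no background measure, so the size of a rise from so dim a level holds only for the deposited values. The call was lost without decitabine replicate 1 (adjusted p = 0.0779) or 2 (0.129), without untreated replicate 2 (0.112) or 3 (0.109), and without both arrays of replicate 1 (0.0878), and the change stayed between 1.27 and 1.70 in all settings tried.

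PMAIP1, which encodes NOXA, was lower in decitabine-treated cells. Its values were 4.11, 4.71 and 4.35 in decitabine and 5.03, 5.77 and 5.65 in untreated arrays, so that every decitabine value was below every untreated value. The means were 4.39 ± 0.30 and 5.48 ± 0.40 (SD, n = 3 per group), and the change was -1.09 (SE 0.27, 95% interval -1.72 to -0.46). Its limma adjusted p was 0.0834 without a block and 0.00681 with it, and without untreated replicate 1 it was 0.0388. It was 0.149 to 0.311 when any other single array was left out. The pairs differed by -0.92, -1.06 and -1.30, closer together than the arrays of either group were, with an SD of 0.19 over pairs. Of all genes, 1.28% had a lower change.

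BBC3, the gene of PUMA, had values of 3.63, 3.45 and 4.15 in decitabine and 4.40, 3.84 and 4.46 in untreated arrays. It was lower in each pair, by 0.77, 0.39 and 0.31, but the groups overlapped. The change of -0.49 (95% interval -1.12 to 0.14, and -0.84 to -0.14 with the block) had a limma adjusted p of 0.536, and of 0.0810 with the block, so it passed in neither fit. Being lower in all 3 pairs was common, as 21.8% of all genes were, and 22.9% were higher in all 3.

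BMF varied with the replicate number and hardly within a pair. Its values were 3.80, 2.24 and 3.21 in decitabine and 3.80, 2.33 and 3.09 in untreated arrays, with pair differences of 0.00, -0.09 and 0.12. The SD was 0.79 in decitabine and 0.74 in untreated arrays, against 0.11 over the pair differences. The interval of its change therefore narrowed from -1.09 to 1.11 without a block to -0.29 to 0.31 with it. Equal values, as in replicate 1 here, were more frequent between arrays of the same number than between others. Their part in the narrower interval was not tested. The other BMF feature, dimmer on every array, had values of 1.84, 1.42 and 1.48 in decitabine and 2.01, 1.59 and 1.62 in untreated arrays, a change of -0.16 (SE 0.23).

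BID had values of 6.40, 6.53 and 6.78 in decitabine and 6.92, 6.71 and 6.72 in untreated arrays. The groups overlapped, and the pairs did not share a direction (-0.52, -0.18 and 0.06). Its change was -0.21 (95% interval -0.68 to 0.26, limma adjusted p = 0.866, and 0.429 with the block).

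The effectors showed no change past the test. BAX, which moves from the cytosol to mitochondria when active, had values of 5.50, 5.47 and 5.44 in decitabine and 5.63, 5.22 and 5.38 in untreated arrays. The decitabine values lay inside the untreated range, and the change was 0.06, with a 95% interval of -0.40 to 0.52 without a block and -0.27 to 0.39 with it. BAK1, whose protein sits on mitochondria throughout, had values of 4.75, 4.96 and 4.61 in decitabine and 4.48, 4.77 and 5.03 in untreated arrays. Its change was 0.01, with intervals of -0.51 to 0.53 and, under the block, -0.41 to 0.44. These intervals reflect the spread among these samples alone, which may be technical, and do not show that the levels were equal.

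The 3 anti-apoptotic members all had lower means in decitabine-treated cells. MCL1, whose protein is short-lived and is the main partner of NOXA, had values of 6.37, 6.96 and 6.73 in decitabine and 7.28, 8.18 and 8.11 in untreated arrays. The groups did not overlap, with means of 6.69 ± 0.30 and 7.86 ± 0.50 (SD, n = 3 per group). The change was -1.17 (SE 0.30), a level 2.25-fold lower, with a limma adjusted p of 0.0890 and of 0.00665 with the block. It also passed without untreated replicate 1 (adjusted p = 0.0258) and without both arrays of replicate 1 (0.0381). It did not pass when any other single array was left out (0.181 to 0.323).

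BCL2 had values of 3.65, 4.13 and 3.95 in decitabine and 4.68, 5.33 and 6.26 in untreated arrays. The groups did not overlap, and the untreated arrays spread more (SD 0.79) than the decitabine arrays (SD 0.24). The change was -1.51 (SE 0.38, 95% interval -2.40 to -0.63), with a limma adjusted p of 0.0874 and of 0.0182 with the block, and without untreated replicate 1 it was 0.0267. When any other single array was left out, the adjusted p was 0.174 to 0.245. The pairs gave -1.03, -1.20 and -2.31, the third being the farthest from 0 and the one with the highest untreated value. BCL2 had the lowest change of the 10 members, and 0.497% of all genes had a lower one.

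BCL2L1, the gene of BCL-XL, had values of 6.21, 6.46 and 6.92 in decitabine and 6.78, 7.32 and 7.68 in untreated arrays. The groups overlapped, since decitabine replicate 3 was above untreated replicate 1, while the pairs were close to each other at -0.57, -0.86 and -0.76. The change of -0.73 (95% interval -1.42 to -0.04) had a limma adjusted p of 0.319 and, with the block, 0.0191. BCL2L1 passed in no other setting tried. Its limma adjusted p was 0.0754 with an intensity trend, 0.124 without the dimmer 50% of genes and 0.167 with quantile normalization. It was 0.7 with median centring, and 0.142 to 0.638 when single arrays were left out. BCL2L1, MCL1 and BCL2L11 are spliced into forms that differ in their effect on apoptosis, and whether a feature separates such forms is not given in the sources used here, so each value stands for the feature as a whole.

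**Figure D2:**
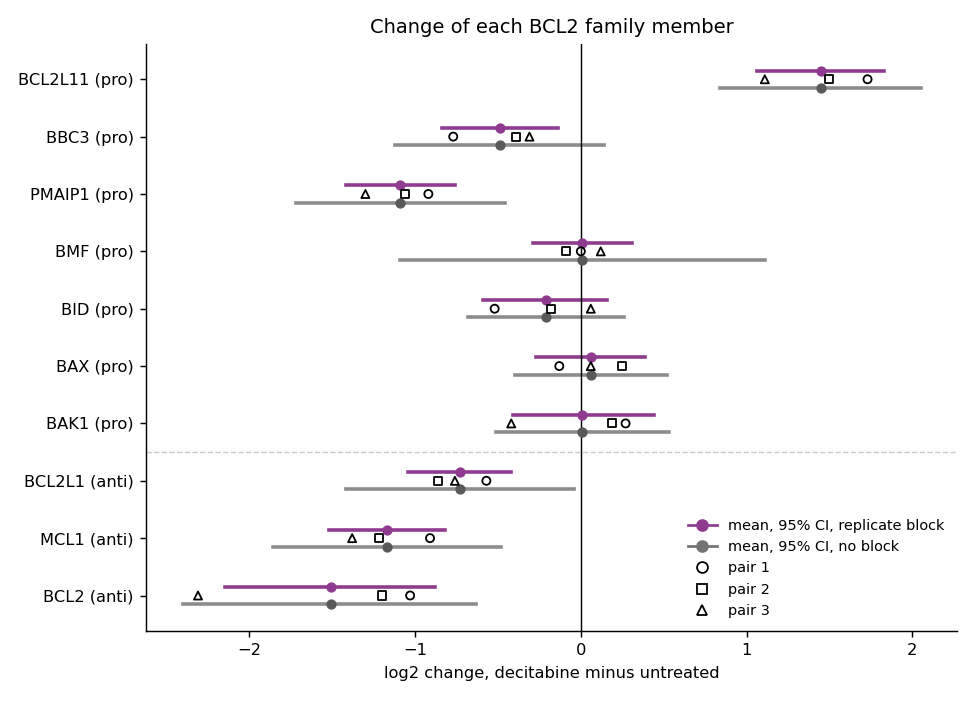
Log2 change of each member, decitabine minus untreated, with open symbols for the 3 pairs and filled points for the mean with its 95% interval, in purple with the replicate number as a block and in grey without. Pro-apoptotic members stand above the dashed line and anti-apoptotic members under it. BCL2L11 lies at 1.45, the 3 anti-apoptotic members between -0.73 and -1.51, and 4 of the 7 pro-apoptotic members (BMF, BID, BAX and BAK1) have both intervals crossing 0.

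Set side by side, the median change was 0.01 over the 7 pro-apoptotic members and -1.17 over the 3 anti-apoptotic members, against -0.02 over all 14884 genes. In the pairs the medians were -0.13, -0.09 and 0.06 for the pro-apoptotic and -0.91, -1.20 and -1.38 for the anti-apoptotic members, with 0.00 over all genes in each pair. The pro-apoptotic members did not move as a group, since BCL2L11 rose in both fits, PMAIP1 fell with the block and 5 passed in neither. The anti-apoptotic members all fell with the block, and none passed without it. PMAIP1, MCL1 and BCL2 also passed without a block under an intensity trend in the variance (limma adjusted p of 0.0178, 0.00456 and 0.0123) and when only the brighter 50% of genes were tested (0.0239, 0.0275 and 0.0304), and MCL1 with quantile normalization (0.0312). With median centring PMAIP1, MCL1 and BCL2 did not pass (limma adjusted p of 0.293, 0.29 and 0.194). These medians describe the chosen genes, which are not replicates, and the difference between the classes was not tested. They do not stand for every anti-apoptotic gene of the family. BCL2L10, outside the 10 members and described below, changed by 0.73 and passed with the block (limma adjusted p = 0.0175). It also passed without a block under quantile normalization (0.0401), but not on the values as deposited (0.287).

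**Figure D3:**
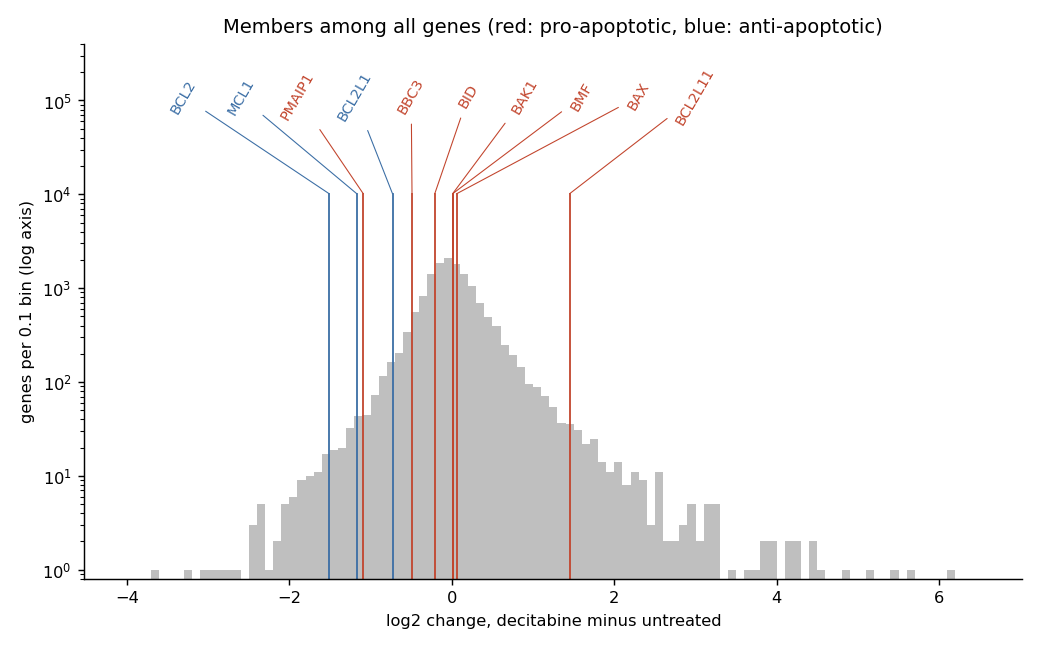
Histogram of the log2 change of all 14884 genes in bins of 0.1, with the number of genes on a log axis, and a vertical line for each member, red for pro-apoptotic and blue for anti-apoptotic. BCL2, MCL1, PMAIP1 and BCL2L1 lie in the lower tail, where 0.497% to 3.49% of genes had a lower change, and BCL2L11 in the upper tail, where 1.46% had a higher one.

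Upstream stretches are shown here for 3 of the 4 members whose arrays did not overlap between the groups, BCL2L11, PMAIP1 and BCL2. MCL1 is named only. Methylation was not measured. Each line holds the 250 bases before the gene's start in RefSeq (GRCh38.p14), 5′ to 3′ on the gene's strand, with CG dinucleotides in capitals. BCL2L11 is at chr2:111120664-111120913 (+), PMAIP1 at chr18:59899746-59899995 (+) and BCL2 at chr18:63319770-63320019 (-).
BCL2L11: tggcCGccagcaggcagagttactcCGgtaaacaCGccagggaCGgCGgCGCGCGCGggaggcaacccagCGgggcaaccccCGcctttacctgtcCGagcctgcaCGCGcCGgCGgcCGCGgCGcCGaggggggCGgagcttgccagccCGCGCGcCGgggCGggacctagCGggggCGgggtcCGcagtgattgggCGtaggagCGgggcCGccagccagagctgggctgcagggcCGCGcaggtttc
PMAIP1: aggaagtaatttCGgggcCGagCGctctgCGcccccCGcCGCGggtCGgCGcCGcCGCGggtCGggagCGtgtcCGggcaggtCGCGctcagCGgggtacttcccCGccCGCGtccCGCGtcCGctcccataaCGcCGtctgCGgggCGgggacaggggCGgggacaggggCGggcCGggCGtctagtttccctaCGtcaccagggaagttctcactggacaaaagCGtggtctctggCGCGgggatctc
BCL2: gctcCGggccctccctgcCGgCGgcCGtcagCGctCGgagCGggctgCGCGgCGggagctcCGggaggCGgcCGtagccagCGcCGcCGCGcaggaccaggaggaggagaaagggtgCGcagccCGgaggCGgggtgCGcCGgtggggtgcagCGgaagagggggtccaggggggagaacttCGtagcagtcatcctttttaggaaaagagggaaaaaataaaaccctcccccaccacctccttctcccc

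The stretch of BCL2L11, which rose, held 34 CG dinucleotides, that of PMAIP1 held 36 and that of BCL2 held 24. Of the 35116 promoter windows in the RefSeq table, 93.2%, 95.1% and 76.3% held fewer than these, and the median was 11. BCL2L11 and PMAIP1, whose changes had opposite signs, thus both stood among the windows richest in CG. Among the other members with 1 such window, BAX held 25, BAK1 5 and BBC3 4. GTAAACA, the core bound by FOXO factors, which are known activators of BCL2L11, was found on either strand in 2.98% of the windows. It occurred in that of BCL2L11, on the gene's strand, 223 to 217 bases before the start, and in no window of the other 8 members searched. TGACG, the half-site of the cyclic AMP response element that ATF4 and CREB bind, was found in 21.2% of the windows. It occurred in PMAIP1 55 to 51 bases and in BCL2 225 to 221 bases before the start, on the opposite strand in both. It also occurred, on the gene's strand, in a window of BMF (57 to 53 bases), BAX (134 to 130) and BCL2L1 (201 to 197), so members past the test in neither fit held it too. TGATGNAA, the composite site of ATF4 and C/EBP factors, was found in 3.14% of the windows and in none of the 9 members searched. A match describes the letters and is not a bound site.

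Beyond the 10 members, BCL2L13 was lower in decitabine-treated cells. Of 17 further genes of the family and its close partners 15 had a named feature, BCL2L2 and HRK being without one and not analysed here. Their median change was -0.06, 1 fell and none rose in limma's test without a block, and 3 fell and 1 rose with it. Over all genes 1.02% fell and 2.01% rose without a block, and 5.37% fell and 7.79% rose with it. BCL2L13, a mitochondrial family protein known as a receptor for the removal of mitochondria, had values of 4.75, 4.76 and 4.22 in decitabine and 5.79, 5.83 and 5.55 in untreated arrays. The groups did not overlap, and it fell by 1.15 on the log2 scale (SE 0.23, limma adjusted p = 0.0405). The call was lost when any single array was left out (adjusted p of 0.0755 to 0.190), without both arrays of replicate 1 (0.0897) and with median centring (0.0652), while the change stayed between -1.24 and -0.97.

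Others passed in the fit with the block but not in the fit without it. BCL2L10, an anti-apoptotic member best known from oocytes, had values of 2.86, 2.27 and 2.31 in decitabine and 2.22, 1.41 and 1.62 in untreated arrays. Its change was 0.73 (limma adjusted p = 0.287, and 0.0175 with the block). These levels were below the array medians over all features. BCL2L10 also passed without a block under quantile normalization (adjusted p = 0.0401). BNIP1, which acts in vesicle fusion at the endoplasmic reticulum, changed by -0.76 (adjusted p = 0.322, and 0.0267 with the block). MOAP1, a partner that helps to activate BAX, changed by -0.59 (adjusted p = 0.317, and 0.0491 with the block). The remaining 11 passed in neither fit and changed by -0.44 (BNIP2) to 0.35 (BIK). They were BCL2A1, BCL2L12, BCL2L14, BCL2L15, BOK, BIK, BAD, BNIP2, BNIP3, BNIP3L and TMBIM6.

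Downstream of the mitochondria, 7 of 17 listed genes had a named feature, and no caspase was among them. None of the 7 passed without a block, where 3.03% of all genes did, and 2 rose with it, where 7.79% of all genes rose. APAF1, the scaffold of the apoptosome that activates caspase-9, had values of 7.03, 7.03 and 6.82 in decitabine and 4.62, 5.75 and 5.82 in untreated arrays. The groups did not overlap, and the change of 1.56 (SE 0.33) had a limma adjusted p of 0.0504, and of 0.0197 with the block. Untreated replicate 1 was the lowest array, and without it the change was 1.18 (adjusted p = 0.0327). When any other single array was left out, the adjusted p was 0.078 to 0.178. Without both arrays of replicate 1 it was 0.0534, and with median centring 0.113. APAF1 passed with quantile normalization (0.03), without the dimmer 50% of genes (0.0156) and with an intensity trend (0.00186). PARP1, a DNA repair enzyme and caspase substrate, changed by 0.75 (adjusted p = 0.0992, and 0.0242 with the block). It passed in these same 3 settings (0.0411, 0.0205 and 0.00508), but not with median centring (0.412) or when single arrays were left out (0.139 to 0.366). VDAC2, the membrane channel that holds BAK at mitochondria, changed by 0.16 (adjusted p = 0.953).

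Of the 7 inhibitors of apoptosis 5 had a named feature. None passed without a block, where 3.03% of all genes did, and 1 rose with it, where 7.79% of all genes rose. BIRC5, or survivin, which also acts in chromosome segregation, had values of 6.31, 6.50 and 6.53 in decitabine and 5.87, 5.96 and 6.04 in untreated arrays, a change of 0.49 (adjusted p = 0.289, and 0.0487 with the block). XIAP, which blocks caspases directly, changed by -0.48 (adjusted p = 0.481, and 0.0589 with the block). Of 15 genes of the death receptor pathway 3 had a named feature, namely FADD, TRADD and CFLAR. None of these passed without a block, and 1 fell with it, where 5.37% of all genes fell. CFLAR, which encodes the caspase-8 inhibitor FLIP, had values of 5.21, 5.55 and 4.89 in decitabine and 5.73, 5.95 and 5.74 in untreated arrays, with the groups apart and a change of -0.59 (adjusted p = 0.293, and 0.0470 with the block).

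Among regulators of the family, TP73 rose and ATF4, DDIT3 and TRIB3 fell. Of 26 listed 17 had a named feature, and the median change of these was -0.23, against -0.02 over all genes. Without a block 1 rose and 3 fell, where 2.01% of all genes rose and 1.02% fell. With the block 1 rose and 4 fell, where 7.79% of all genes rose and 5.37% fell. TP73, a transcription factor that can switch on BH3-only genes, had values of 3.95, 3.98 and 4.19 in decitabine and 3.24, 2.78 and 3.06 in untreated arrays. It rose by 1.01 (SE 0.21, limma adjusted p = 0.0478), and the call was lost without each array except untreated replicate 1 (adjusted p of 0.106 to 0.217), with quantile normalization (0.0508), with median centring (0.131), with an intensity trend (0.0719) and without both arrays of replicate 1 (0.0598).

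ATF4, the transcription factor of the integrated stress response and a known activator of PMAIP1, had values of 7.13, 7.32 and 7.12 in decitabine and 8.24, 8.53 and 8.40 in untreated arrays. It fell by 1.20 on the log2 scale (limma adjusted p = 0.0187), with arrays of each group close together. The call was lost with median centring (adjusted p = 0.0946) and without each array except untreated replicate 1 (0.0620 to 0.115). DDIT3, or CHOP, a factor downstream of ATF4 that has been linked to BCL2L11 and BCL2, had values of 3.06, 2.72 and 2.54 in decitabine and 4.19, 4.37 and 4.87 in untreated arrays. It fell by 1.70 (adjusted p = 0.0134), while the call was lost without decitabine replicate 2 (0.0719) or 3 (0.0659) or untreated replicate 2 (0.0607). TRIB3, a pseudokinase of the same response that restrains AKT, changed by -2.47 (adjusted p = 0.0186), and lost its call without decitabine replicate 2 (0.0814) or untreated replicate 2 (0.0830).

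MYC, a driver of growth that also primes cells for apoptosis, had values of 7.40, 8.57 and 8.68 in decitabine and 8.25, 9.45 and 9.54 in untreated arrays. Both arrays of replicate 1 were low, so that the groups overlapped although every pair was lower in decitabine. The change of -0.86 had an adjusted p of 0.491, and of 0.00940 with the block. It was -0.45 without decitabine replicate 1 and -1.28 without untreated replicate 1. FOXO1 and FOXO3, known activators of BCL2L11, changed by -0.28 (adjusted p = 0.924) and -0.23 (adjusted p = 0.972) and passed in neither fit.

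**Figure D4:**
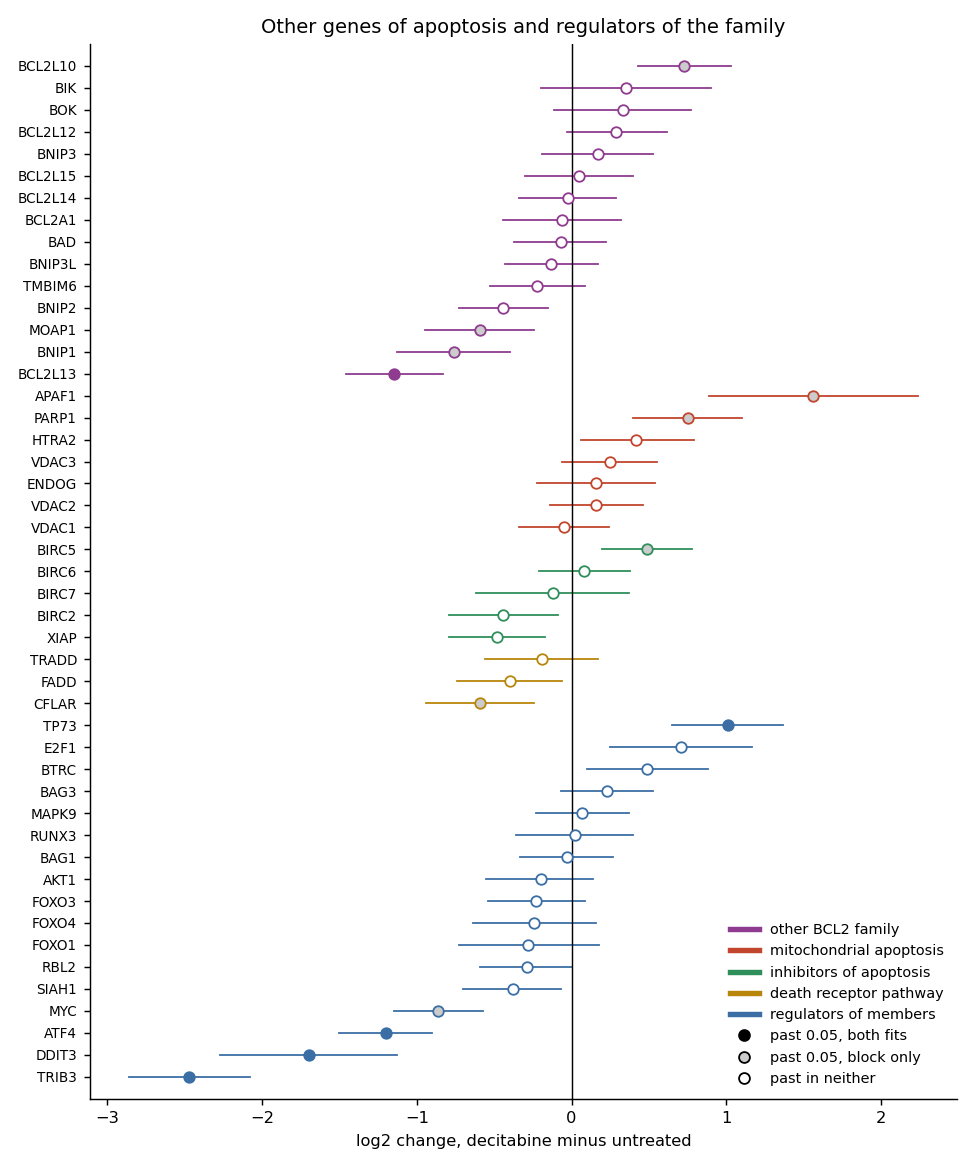
Log2 change, decitabine minus untreated, of 47 further genes in 5 lists, coloured by list and sorted by change within it; bars are 95% intervals from the fit with the replicate number as a block, and a point is filled where the adjusted p was under 0.05 in both fits, grey where it was so with the block alone and white elsewhere. TP73 is the filled point to the right of 0, and BCL2L13, ATF4, DDIT3 and TRIB3 are those to the left.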

How the data were processed

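The deposited table held 48226 features on 6 arrays. The authors made its values, read here as log2 expression, in the Transcriptome Analysis Console according to the submitters' processing notes. Version, normalization and filters are not stated there. The log base was inferred from the range of 0.17 to 12.89. The table gives no background measure, and with so few arrays precision is limited.

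Platform annotation gave 16098 features a single symbol, which was brought up to date by matching all Entrez Gene IDs to RefSeq (GRCh38.p14). The feature with the highest mean stood for each of 14884 genes. The groups were compared with limma 3.58.1 in R 4.3.3, two-sided and without a covariate, with Benjamini-Hochberg adjustment over all genes and a threshold of 0.05. The fit was tried on simulated data. There, arrays of the same number were less alike than found below, and no exactly equal values were built in. That trial therefore cannot speak to calls made with the block alone. Members, lists and motifs were chosen with earlier results of these data known. Every member and every measured gene of the further family list is named, and of the other lists mainly those past the threshold in either fit; VDAC2, XIAP, FADD, TRADD, FOXO1 and FOXO3 were added after their values were seen.

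The titles give both groups the same replicate numbers. The deviation of each gene from its group mean correlated at 0.682, 0.595 and 0.558 in arrays of the same number and at -0.006 to -0.483 in others. Exactly equal values made up 6.44%, 7.94% and 8.28% of features in arrays of the same number, and 0.417% to 1.02% in all other pairs of arrays, for which no source used here gives a reason. This touches the fit with the block, and its part in that fit's calls was not tested. On the titles and this check the arrays were treated as pairs, and a second fit had the number as a block. Alternatives were quantile normalization, median centring, leaving out the dimmer 50% of genes, an intensity trend, leaving out each array, leaving out both arrays of replicate 1, and the other BMF feature.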

Additional observations from a re-analysis of the deposited data

How the results depend on the processing

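Without a block 1 member rose and 0 fell. The number that fell was 4 with the replicate number as a block, 3 with an intensity trend or with the dimmer 50% of genes left out, and 1 with quantile normalization or without both arrays of replicate 1. It was 0 with median centring and 0 to 3 when single arrays were left out. The number that rose was 0 without both arrays of replicate 1, 0 to 1 when single arrays were left out, and 0 with the dimmer genes left out, where BCL2L11 and BMF were among the genes removed. Over all genes 299 rose and 152 fell, against 1159 and 800 with the block, 551 and 387 with quantile normalization, 557 and 432 without the dimmer genes, 694 and 468 with the trend, 280 and 91 with median centring, and 95 to 321 and 33 to 156 when single arrays were left out. Of the 5 further lists together 1 gene rose and 4 fell. With the block this was 5 and 8, with quantile normalization 3 rose, without the dimmer genes and with the trend 2 rose, with median centring 0 rose and 2 fell, without both arrays of replicate 1 none (0) rose, and without single arrays 0 to 2 rose and 0 to 3 fell.

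The median of the pro-apoptotic members was -0.21 over the 5 left after the dim filter and -0.25 to 0.02 without single arrays, and that of the anti-apoptotic members -1.46 to -1.01. BCL2L11, BBC3, PMAIP1, BID, BCL2L1, MCL1 and BCL2 kept their direction in all settings that included them. Genes near 0 changed sign when single arrays were left out, and none of these values passed the test. The range over such settings was -0.36 to 0.43 for BMF, -0.04 to 0.17 for BAX, -0.13 to 0.15 for BAK1, -0.27 to 0.08 for BCL2A1, -0.14 to 0.06 for BCL2L14, -0.13 to 0.36 for BCL2L15, -0.18 to 0.04 for BAD, -0.02 to 0.51 for BNIP3 and -0.32 to 0.09 for BNIP3L. BMF also gave -0.02 with quantile normalization and -0.16 for the other feature. Without both arrays of replicate 1, BAK1 gave -0.12, BCL2A1 0.02 and BCL2L14 0.04, and BCL2L14 gave 0.02 with quantile normalization. The cause of these changes was not tested.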
